A study of Mus musculus with 11 samples.

Results

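The genes described here build the contractile apparatus of heart muscle and move its calcium. A list of 37 genes was taken by symbol from the deposited gene table, and 33 of them were among its 15061 genes. They fall into 7 thick filament genes, 5 thin filament genes, 13 genes of the Z-disc, M-band, titin and intermediate filament, 6 calcium handling genes and 2 natriuretic peptide genes. Myom2, Myoz2, Sln and Casq2 were not analysed here.

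In a sarcomere, myosin of the thick filament pulls on actin of the thin filament. Troponin and tropomyosin on the thin filament make this pull depend on calcium. The Z-disc anchors the thin filaments, the M-band holds the thick filaments in register, and titin spans the distance between them. Calcium enters the cell through an L-type channel, is released from the sarcoplasmic reticulum through the ryanodine receptor, and is pumped back by SERCA. In the mouse embryo these genes mark the heart tube, and many of them are also used by skeletal muscle. The yolk sac is an extraembryonic membrane of visceral endoderm and mesoderm, with blood and vessels but no heart tissue of its own.

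RNA of embryonic day 9.5 mouse yolk sac was sequenced in 11 libraries. The 4 control libraries (control 1 to 4) came from Hand1 fx/+ embryos, which carry 1 floxed allele of the transcription factor gene Hand1. The 3 H1CKO libraries (H1CKO 5 to 7) came from T-Cre +/-; Hand1 fx/fx embryos, in which Cre recombinase is driven from T, the brachyury gene active in the primitive streak and early mesoderm. The 4 H1H2H2 libraries (H1H2H2 8 to 11) came from Hand1 H2/H2 embryos, in which both Hand1 alleles are the Hand2 replacement allele. Cre is labelled for H1CKO only, and what it does by itself cannot be told apart from Hand1 loss. The descriptions of the H1CKO libraries name a knockout over a floxed allele where the genotype field names 2 floxed alleles. The controls are called wild type in their descriptions. The labels do not say whether the libraries came from separate embryos or litters, so p-values measure only the spread between these libraries. The H1CKO libraries are all male by sex-linked transcripts, 3 of the controls are female, and 1 H1H2H2 library is female.

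Libraries held 12019377 to 16824228 counts over genes. Hand1 stood at 31.1 to 91.1 CPM (counts scaled to library size with TMM factors) in control, 5.95 to 10.8 in H1CKO and 4.35 to 15.2 in H1H2H2. The labelled tissue was checked by 15 visceral endoderm markers, whose summed level was 38367 to 44570 CPM in control, 9652 to 16599 in H1CKO and 46146 to 49549 in H1H2H2. All 15 were called lower in H1CKO than in control, where 25.6% of all genes were. Of 16 neural and somitic markers, tissues of the embryo proper, 16 were called higher in H1CKO, where 27.0% of all genes were. Their summed level was 3.31 to 12.6 CPM in control, 174.2 to 194.6 in H1CKO and 0.963 to 11.1 in H1H2H2. In each control 4 to 8 of the 16 had no count, and in each H1H2H2 library 8 to 10. Any marker that passed the filter on low counts only through H1CKO had to differ. These lists moved with the comparison in which the heart muscle genes rose, and their part in that result was not tested. In bulk tissue, a change in the number of cells of a type and a change in RNA per cell cannot be told apart.

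Control 1 and H1H2H2 9 stood apart from the other libraries of their groups in several of these genes. Control 1 held Myh6 at 26.8 CPM against 0.132 to 0.343 in the other controls, and Ttn at 122.3 against 11.6 to 14.4. H1H2H2 9 held Myh6 at 2.67 CPM against 0.0661 to 0.212, and Myl7 at 3.61 against 0.264 to 0.481. Within H1CKO, the level in H1CKO 5 was the highest for 32 of the 33 genes, where this held for 40.9% of all genes tested. The column names of control 1 and control 2 share a yolk sac number, and both were kept as separate samples. Results that rest on these libraries are given below with and without them.

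Promoters of the genes in the RefSeq promoter table (build GRCm38.p6) were searched on both strands for 6 motifs in the 250 bases before each start. The table held 29 of the 33 genes, with 41 starts. The CArG box, the serum response factor element known from actin and light chain genes, was found in 6 of 29 genes (20.7%) and in 1.62% of all 27025 genes in the table. The MEF2 site was found in 3 of 29 (10.3%) and in 3.42% of all genes. The GATA motif AGATAA was found in 8 (27.6%, all genes 11.4%), the T-box motif AGGTGT in 5 (17.2%, all genes 13.6%), the NKX2-5 motif CACTTNA in 4 (13.8%, all genes 11.4%) and the TATA box TATAAA in 4 (13.8%, all genes 14.3%). No 2 matches overlapped. These are matches of letters and not measured binding. The sequences below are the 120 bases before the start, shown for the 5 genes with a CArG box within them and for Mybpc3, whose promoter holds a MEF2 site. Capitals mark the CArG box or, in Mybpc3, the MEF2 site, and each is read 5′ to 3′ on the strand of the gene. Actc1, the alpha-cardiac actin gene, lies before the start at chr2:114052876-114052995 on the minus strand. Myl7, the atrial regulatory light chain gene, is shown from chr11:5898783-5898902 on the minus strand. Myl3, the ventricular essential light chain gene, is shown from chr9:110763558-110763677 on the plus strand. Ldb3, a Z-disc protein gene, is shown from chr14:34588682-34588801 on the minus strand. Myom1, the gene of the M-band protein myomesin, is shown from chr17:71019437-71019556 on the plus strand. Mybpc3, cardiac myosin-binding protein C, is shown from chr2:91118024-91118143 on the plus strand.
Actc1: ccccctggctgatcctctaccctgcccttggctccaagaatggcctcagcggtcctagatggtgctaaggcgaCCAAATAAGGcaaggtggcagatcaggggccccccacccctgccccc
Myl7: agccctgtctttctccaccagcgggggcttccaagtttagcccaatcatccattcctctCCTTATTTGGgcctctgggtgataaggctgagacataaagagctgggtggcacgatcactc
Myl3: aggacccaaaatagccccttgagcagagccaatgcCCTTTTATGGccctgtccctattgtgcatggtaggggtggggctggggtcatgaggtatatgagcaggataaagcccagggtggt
Ldb3: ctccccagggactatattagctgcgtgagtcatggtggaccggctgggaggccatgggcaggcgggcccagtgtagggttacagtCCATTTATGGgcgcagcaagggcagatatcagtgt
Myom1: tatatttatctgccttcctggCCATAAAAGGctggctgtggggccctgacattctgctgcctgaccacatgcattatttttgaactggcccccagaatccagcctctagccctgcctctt
Mybpc3: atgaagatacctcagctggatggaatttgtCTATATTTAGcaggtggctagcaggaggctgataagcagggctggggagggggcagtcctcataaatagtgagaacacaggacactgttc
The box began 35 bases before the start in Ldb3, 47 in Actc1, 61 in Myl7, 85 in Myl3 and 99 in Myom1, and the MEF2 site of Mybpc3 began 90 bases before it.

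The comparison of H1CKO with control asks what the yolk sac transcriptome holds once Hand1 is deleted with T-Cre. Every tested gene of the list was higher in H1CKO, from motor and light chains to troponins, Z-disc proteins, calcium channels and atrial natriuretic peptide. Of 32 tested, 32 were called higher and 0 lower at an adjusted p under 0.05 in edgeR's quasi-likelihood test with Benjamini-Hochberg adjustment, where 27.0% of all 14671 genes were called higher and 25.6% lower. In 30 of them the rise was at least 4-fold, against 5.54% of all genes. Nppb was not tested because its counts were too low. In all 32 the lowest H1CKO library lay above the highest control library, which held for 31.5% of all genes. The median log2 fold change was 5.32, beside 0.03 over all genes, and the median was also 5.32 with Myl2 and Nppa, which had no count in control, set to their lower bound. Among the other genes the change ran from 0.35 for Atp2a2 to 10.23 for Myh7. Of the 32, 15 passed the filter on low counts only through the H1CKO libraries and so had to differ. The other 17 pass it on the control and H1H2H2 libraries alone. These 17 were all called higher, with a median of 3.77, where 24.1% of the 13624 genes that pass in this way were. Without H1CKO 5 the median over the 32 was 4.73.

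**Figure D1:**
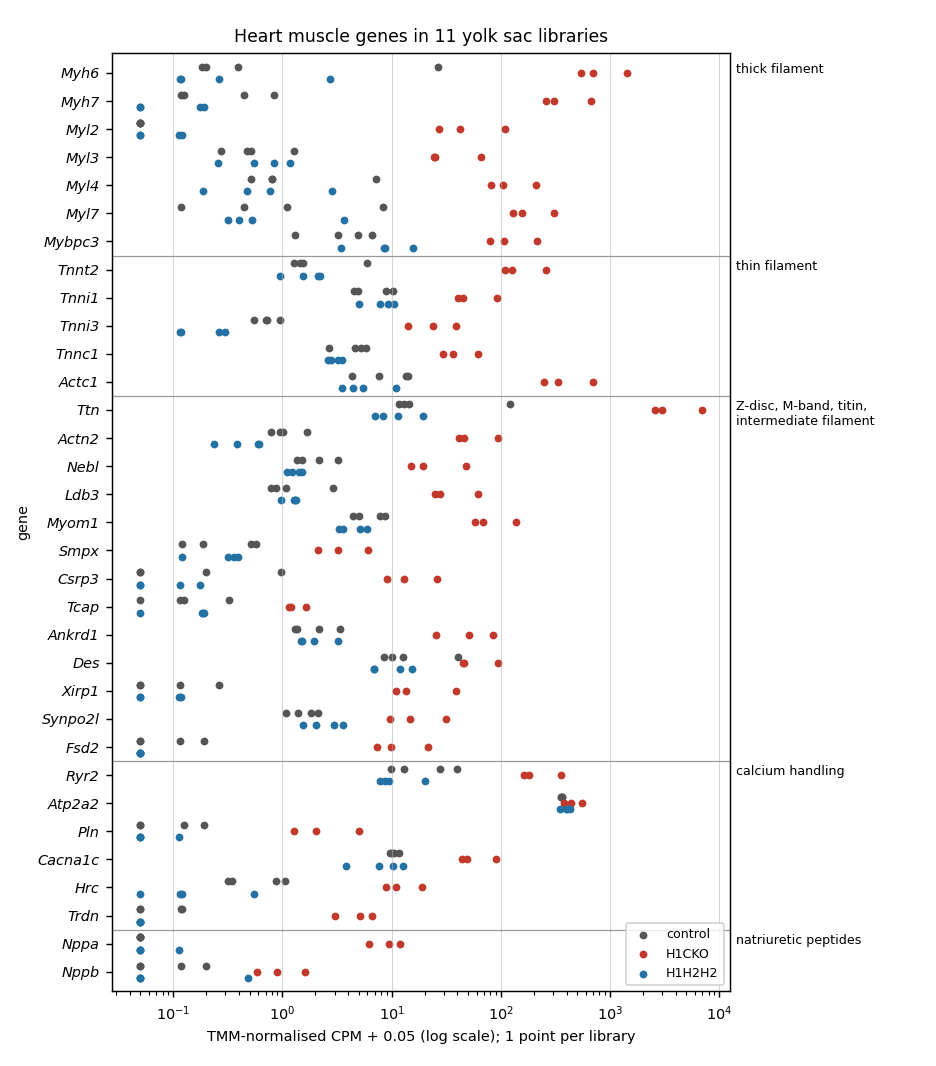
TMM-normalised CPM plus 0.05 (log axis) of the 33 genes in each library, 1 point per library, by group and role. The H1CKO points lie to the right of the control points for every gene, by a small margin for Atp2a2 (380.3 to 557.6 CPM against 354.3 to 365.3) and Des, and control 1 lies between the groups for Myh6 and Ttn.

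The genes took 1.36%, 0.643% and 0.536% of all counts in H1CKO 5, 6 and 7. In control they took 0.0415% to 0.0649%, and in H1H2H2 0.0425% to 0.0518%. Titin, the largest of them with a gene model of 104320 bases, took 0.737%, 0.323% and 0.271% of the counts in the 3 H1CKO libraries. Without Ttn and Atp2a2 the summed level was 5292, 2516 and 2125 CPM in H1CKO against 70.2 to 159.8 in control and 57.6 to 93.4 in H1H2H2. Calcium handling genes, mainly Atp2a2, held 62.2% to 86.4% of the list's counts in control. In H1CKO their share was 8.07% to 12.025%, while Z-disc, M-band, titin and intermediate filament genes held 55.5% to 59.4% and thick filament genes 23.3% to 23.6%. The thick filament share thus differed by little between H1CKO libraries whose summed levels differed.

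Levels of different genes were compared on the authors' FPKM, which is per length. In H1CKO the highest was Myl7 at 328.9 ± 159.1 FPKM (SD, n = 3), which ranked 115 of 15061 genes. Actc1 was next at 300.3 ± 168.4. Myl7 lay above Actc1 in each H1CKO library (511 against 492, 259.5 against 232.5 and 216.3 against 176.3 FPKM). These SDs are between libraries and do not measure a difference within a library, which was not tested. Myl4, Myh6 and Tnnt2 followed at 146.9 ± 76.6, 143.8 ± 77.8 and 129.4 ± 65.3 FPKM, and stood in this order in each H1CKO library. Myl2 stood at 92.7, Atp2a2 at 78.5, Myh7 at 66.6 and Tnnc1 at 59.4 FPKM. Ttn, with the most counts, stood at 39.2 FPKM. The lowest means were those of Trdn (1.09), Pln (1.13), Nppb (1.41) and Tcap (1.47). In control, Atp2a2 at 63.5 FPKM ranked 983, while the next highest on the list, Actc1, stood at 7.29 FPKM.

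Thick filament genes had a median change of 6.34 (7 of 7 called higher, where 27.0% of all genes were). Of these, Myh6, Myh7, Myl2, Myl3 and Myl7 passed the filter on low counts only through H1CKO and so had to differ. The other roles hold such genes too, so the medians of the roles are not ranked here. Myl2, the ventricular regulatory light chain, had 0 counts in each of the 4 controls, and 109.6, 42.3 and 27.2 CPM in H1CKO 5, 6 and 7. H1H2H2 held 1 count in H1H2H2 8 and in H1H2H2 9 and none in the others. H1CKO was thus at least 1129-fold higher than control, taking 3 counts over the control group as the floor (edgeR adjusted p = 9.51e-06).
Myh6, the alpha myosin heavy chain, stood at 26.8, 0.343, 0.149 and 0.132 CPM in control 1 to 4 and at 1439, 691.2 and 545.6 in H1CKO. H1H2H2 8 to 11 held 0.212, 2.67, 0.0661 and 0.0688 CPM. The groups did not overlap, and control 1 lay far above the other controls. The log2 fold change was 7.03 (SE 1.15, edgeR adjusted p = 0.000293) and 11.96 without control 1.
Mybpc3, which binds myosin and limits its access to actin, had the smallest change of the thick filament. It stood at 6.61, 3.16, 1.27 and 4.90 CPM in control, 215.5, 106.7 and 80.3 in H1CKO, and 3.39, 15.5, 8.65 and 8.46 in H1H2H2. All H1CKO libraries lay above the rest (log2 fold change 5.06, SE 0.525, edgeR adjusted p = 1.42e-05).
The beta heavy chain Myh7 and the light chains Myl3, Myl4 and Myl7 rose by 5.87 to 10.23 on the log2 scale. Without control 1, Myl4 changed by 7.60 in place of 5.87, Myl7 by 8.59 in place of 6.34, and Myh7 by 11.00 in place of 10.23. Myh6 and Myh7 lie 4.08 kb apart on chromosome 14, and their transcripts are 91.8% identical over 5810 aligned bases, so the split of reads between them is uncertain. Of Myh7's exon bases, 13.3% lie in other gene models, among them the antisense Mhrt, and the strand setting of the counting is not stated.

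Thin filament genes rose with a median of 5.21 (5 of 5), and Tnni3 passed the filter only through H1CKO. Tnnt2, cardiac troponin T, which ties troponin to tropomyosin, had the largest change. It stood at 5.90, 1.24, 1.49 and 1.39 CPM in control 1 to 4, at 260.1, 126.4 and 108.7 in H1CKO, and at 1.48, 2.18, 2.05 and 0.894 in H1H2H2. Control 1 was the highest control and still far below H1CKO (log2 fold change 6.04, SE 0.478, edgeR adjusted p = 3.83e-06; 6.86 without control 1).
Tnni1, the slow skeletal troponin I that embryonic hearts also express, had the smallest change. Its level was 10.3, 4.88, 8.79 and 4.43 CPM in control, 91.25, 44.8 and 40.5 in H1CKO, and 7.83, 10.5, 9.12 and 4.95 in H1H2H2. Control and H1H2H2 overlapped, and H1CKO lay above both (3.05, SE 0.356, edgeR adjusted p = 2.86e-05).
Actc1 stood at 14.2, 13.4, 4.24 and 7.68 CPM in control, 695.5, 331.9 and 249.5 in H1CKO and 10.9, 5.41, 3.44 and 4.33 in H1H2H2, with a change of 5.42 (SE 0.470, edgeR adjusted p = 5.30e-06). Tnnc1, the calcium-binding subunit shared by slow and cardiac muscle, rose by 3.22 (SE 0.279). Tnni3, the cardiac troponin I of the mature heart, rose by 5.21 (SE 0.369), from 0.68 ± 0.162 CPM (SD, n = 4) to 25.6 ± 12.6 (SD, n = 3). Tnni1 and Tnnt2 are neighbours on chromosome 1, 25.3 kb apart.

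Genes of the Z-disc, M-band, titin and intermediate filament rose with a median of 4.75 (13 of 13). Among them, Smpx, Csrp3, Tcap, Xirp1 and Fsd2 passed the filter only through H1CKO. Xirp1, an actin-binding protein of the intercalated disc, had the largest change of the 13. It stood at 0.213, 0, 0 and 0.0662 CPM in control, 38.6, 13.4 and 11.0 in H1CKO, and at most 0.0688 in H1H2H2. Control counts were 3, 0, 0 and 1, so the log2 fold change of 8.06 (SE 0.686, edgeR adjusted p = 5.12e-06) rests on few control counts, and it was 9.32 without control 1 and 7.26 without H1CKO 5.
Ttn stood at 122.3, 11.6, 12.96 and 14.4 CPM in control, 6957, 2988 and 2559.6 in H1CKO, and 6.99, 19.2, 11.5 and 8.32 in H1H2H2. Control 1 lay between the groups. The change was 6.69 (SE 0.884, edgeR adjusted p = 6.43e-05), 8.28 without control 1 and 6.09 without H1CKO 5.
Des, the intermediate filament protein desmin, which smooth muscle also makes, had the smallest change. It stood at 12.6, 40.7, 9.98 and 8.54 CPM in control, 94.0, 46.2 and 44.6 in H1CKO, and 15.2, 11.8, 6.805 and 6.88 in H1H2H2. Control 2 lay close below the 2 lower H1CKO libraries. The change of 1.78 (SE 0.498, edgeR adjusted p = 0.00981) lost its call with a sex term (1.93, adjusted p = 0.0711) or without H1CKO 5 (1.32, adjusted p = 0.0578), and it was 2.53 without control 2.
The other 10 genes of this role changed by 3.51 (Tcap, the titin cap) to 7.71 (Fsd2). Fsd2, found in muscle beside the sarcoplasmic reticulum, had 3 counts over the 4 controls and 496 over H1CKO, a ratio of 242.8 (95% counting interval 82.6 to 1182). Actn2, the alpha-actinin that cross-links actin at the Z-disc, rose by 5.83 (SE 0.348), and the Z-disc proteins Nebl, Ldb3 and Synpo2l by 3.77, 4.81 and 3.58. Csrp3, a muscle LIM protein, rose by 5.87 and by 8.13 without control 1. Myom1, the muscle protein Smpx and the stress-responsive Ankrd1 rose by 3.76, 3.61 and 4.75. Tcap was the only gene of the list lowest in H1CKO 5, with 1.10, 1.15 and 1.60 CPM in H1CKO 5, 6 and 7.

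Calcium handling genes had a median change of 3.90 (6 of 6), and Pln, Hrc and Trdn passed the filter only through H1CKO. Trdn, which anchors the release complex of the sarcoplasmic reticulum, changed the most. It had 1, 1, 0 and 0 counts in control, no count in H1H2H2, and 6.60, 5.04 and 2.98 CPM in H1CKO, and the ratio of H1CKO to control was 138.8 (95% counting interval 37.9 to 1154).
Atp2a2, the SERCA2 pump, is made in most cell types and changed the least. It stood at 360.6, 365.3, 354.3 and 358.2 CPM in control, 557.6, 437.6 and 380.3 in H1CKO, and 348.1, 429.5, 405.6 and 399.2 in H1H2H2. H1CKO lay above control in every library and overlapped H1H2H2. The change was 0.35 (SE 0.116, edgeR adjusted p = 0.0228). With a sex term it was 0.38 and no longer called (adjusted p = 0.0727). It was 0.30 to 0.32 and not called once any of the 4 controls was left out, with adjusted p from 0.0544 to 0.0788. Leaving out H1CKO 5 gave 0.17 (adjusted p = 0.166), and leaving out H1CKO 6 gave 0.34 (adjusted p = 0.0582).
Ryr2, the cardiac ryanodine receptor, rose from 22.4 ± 13.7 to 233.2 ± 105.6 CPM, with controls at 27.6, 39.2, 12.8 and 9.86. Cacna1c, the pore of the L-type calcium channel, rose by 2.57 (SE 0.326) from an even control level of 9.69 to 11.5 CPM. Hrc, a calcium-binding protein of the reticulum, rose by 4.42 (SE 0.550). Pln, the small inhibitor of SERCA2, had 3 counts over the controls and 4.95, 1.98 and 1.22 CPM in H1CKO, a ratio of 51.4 (95% counting interval 17.1 to 253.3). Of Pln's exon bases, 64.7% lie in the gene models Cep85l and Gm47644, so its reads may belong to either.

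Of the natriuretic peptides, hormones of heart muscle cells that lower blood volume, Nppa had 0 counts in each control and 11.9, 9.47 and 6.11 CPM in H1CKO. H1H2H2 9 held 1 count and the other H1H2H2 libraries none. H1CKO was at least 174.3-fold higher than control (edgeR adjusted p = 5.73e-06), and 61.5% of Nppa's exon bases lie in the antisense model Gm13054. Nppb, 13.5 kb from Nppa on chromosome 4, had 0, 1, 2 and 0 counts in control and 20, 11 and 7 in H1CKO, a ratio of 18.6 (95% counting interval 5.90 to 94.2). H1H2H2 9 held 7 Nppb counts and the other H1H2H2 libraries none, so Nppb and not Nppa was the larger of the pair there. In the 3 H1CKO libraries Nppa made up 88.4% to 92.0% of the counts of the pair.

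**Figure D2:**
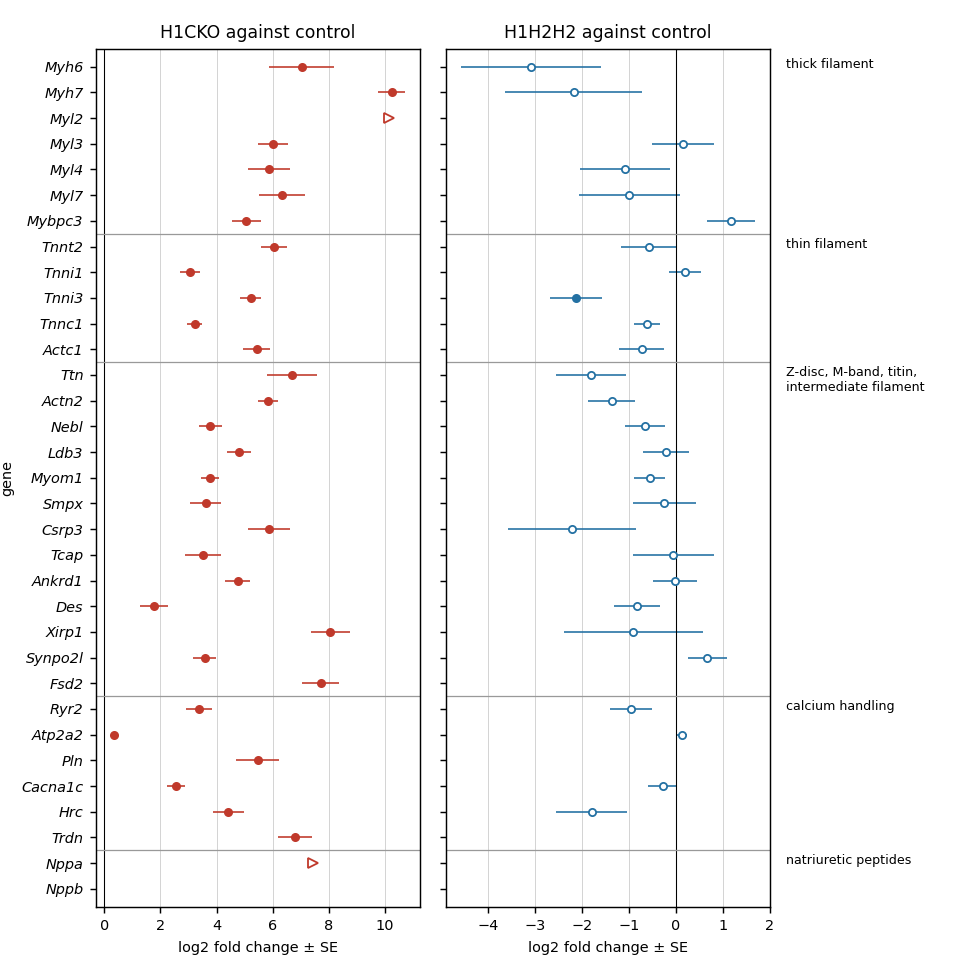
Log2 fold change with its SE for each tested gene in H1CKO against control (left) and H1H2H2 against control (right), from edgeR, filled where the adjusted p is under 0.05. Triangles mark Myl2 and Nppa at the lower bound from 3 counts, genes with at most 3 counts in each group are left out on the right, and the left points run from 0.35 upward while on the right only Tnni3 is filled.

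The comparison of H1H2H2 with control asks what differs once Hand2 stands in place of Hand1. Here 31 of the 32 tested heart muscle genes were called in neither direction. Of 32 tested, 0 were called higher and 1, Tnni3, lower, where 9.49% of all genes were called higher and 7.16% lower. At an unadjusted p under 0.05 there were 5 of the 32 (Mybpc3, Tnni3, Ttn, Actn2 and Hrc), where 5074 of all 14671 genes were. DESeq2 called 3 lower, Tnni3, Actn2 and Hrc, and limma-voom 0. The shares of all genes called by these other tests are not given here. Of the 32, 15 passed the filter on low counts only through the H1CKO libraries, which are not in this comparison, and Tnni3 is 1 of these. Of the other 17, edgeR called 0 in either direction, where 10.1% of the 13624 genes that pass without H1CKO were called higher and 7.12% lower. Among these 17, 3 (Mybpc3, Ttn and Actn2) were at an unadjusted p under 0.05, DESeq2 called Actn2, the median was -0.58 and 13 were below 0. Tnni3 had 7, 13, 9 and 10 counts in control 1 to 4 and 3, 4, 1 and 1 in H1H2H2 8 to 11. Each H1H2H2 library lay below each control, which held for Actn2 as well and for 8.00% of all genes, but all counts were low. The log2 fold change was -2.12 (SE 0.555, edgeR adjusted p = 0.0271). Tnni3 was no longer called after adding sex to the model (-2.25, adjusted p = 0.0657). The same held after leaving out control 2 or 3 or H1H2H2 9, 10 or 11, with log2 fold changes from -2.50 to -1.89 and adjusted p from 0.0513 to 0.0768.
The median log2 fold change over the 32 genes was -0.69, beside -0.01 over all genes, and 25 of 32 were below 0 where 51.8% of all genes were. Myl2, Fsd2, Pln, Trdn and Nppa had at most 3 counts in each of these groups, and the median was -0.66 without those 5. Control 1 held the highest level among controls for 20 of the 33 genes, where this held for 25.7% of all genes tested. Without control 1 the median over the 32 genes was -0.24, and it was -0.50 without both control 1 and H1H2H2 9. Ttn was at -1.80 (SE 0.745, edgeR adjusted p = 0.109) and Actn2 at -1.37 (SE 0.499, edgeR adjusted p = 0.077). Hrc was at -1.79 (SE 0.765, edgeR adjusted p = 0.12), and it was called without H1H2H2 9 (-3.48, adjusted p = 0.0413). Mybpc3 was at 1.18 (SE 0.511, edgeR adjusted p = 0.126) and was called higher without H1H2H2 8 (1.43, adjusted p = 0.0373). The authors' deposited table calls 5 of the 33 genes lower in this comparison, Myh7, Tnni3, Ttn, Actn2 and Hrc, and 0 higher. The share of all genes that the authors call lower is not given here, so this count has no background to be read against.

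H1H2H2 was also set directly against H1CKO. Of 32 tested, 31 were called lower in H1H2H2 and 0 higher, where 33.3% of all genes were called lower and 31.8% higher. In the same 31 every H1H2H2 library lay below every H1CKO library, against 32.6% of all genes. The median was -6.18. The 15 genes that passed the filter only through H1CKO had to be lower in H1H2H2. Of the other 17, 16 were called lower, with a median of -4.33, where 30.1% of the 13624 genes that pass without H1CKO were called lower and 34.1% higher. Atp2a2 was not called (-0.21, SE 0.116, edgeR adjusted p = 0.125), and its libraries overlapped between the groups. Myl2 had 2 counts over H1H2H2, a ratio of 1776 (95% counting interval 491.0 to 14670) between H1CKO and H1H2H2. Fsd2 and Trdn had no count in H1H2H2, and H1CKO was at least 254.5-fold and 97.0-fold higher. This comparison shares its H1CKO libraries with the first, so the counts are not independent of each other.

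The H1CKO libraries differed in how much heart muscle RNA they held. The median ratio of H1CKO 5 to H1CKO 6 over the 33 genes was 2.04, and of H1CKO 5 to H1CKO 7 it was 2.57, beside 1.02 and 1.02 over all genes tested. H1CKO 5 was the highest of the group for 32 of the 33 genes, where this held for 40.9% of all genes. The other heart contraction genes showed like ratios of 1.89 and 2.28, and H1CKO 5 was highest for 28 of 28. Smooth muscle markers stood at 1.28 and 2.12, visceral endoderm markers at 1.56 and 1.33, and neural and somitic markers at 1.12 and 0.895. H1CKO 5 was also highest for 15 of 15 visceral endoderm markers and 10 of 11 smooth muscle markers, and for 8 of 16 neural and somitic markers. Being highest in H1CKO 5 was thus not particular to the heart muscle genes. Neural and somitic markers thus did not follow the level of the heart muscle genes across these 3 libraries, and with 3 libraries no test was made.

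**Figure D3:**
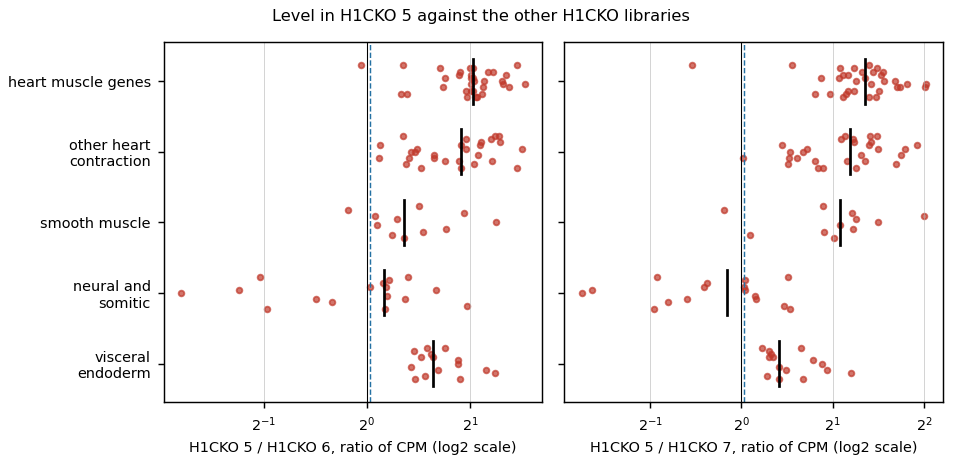
Ratio of CPM in H1CKO 5 to H1CKO 6 (left) and to H1CKO 7 (right) for each gene of 5 lists, on a log2 axis, with the list median as a black bar and the median of all genes tested dashed. The heart muscle genes centre on 2.04 and 2.57, while neural and somitic markers centre on 1.12 and 0.895.

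The make-up of the heart muscle RNA was described by pairs of related genes, picked after their values were seen and given without a test. In H1CKO, Myh6 made up 68.4%, 72.6% and 64.0% of the Myh6 and Myh7 counts. In control 1 it made up 97.2% (exact 95% interval 94.98 to 98.6), from 377 Myh6 and 11 Myh7 counts. In H1H2H2 9 it made up 95.6% (84.9 to 99.5), from 43 and 2 counts. The other controls and H1H2H2 libraries held 8 or fewer counts of the pair.
Myl7 made up 73.7%, 78.8% and 82.7% of the Myl7 and Myl2 counts in H1CKO 5, 6 and 7. Control 1 had 117 Myl7 counts and 0 Myl2 counts, which allows a Myl2 share of up to 2.56% of the pair, taking 3 of the 117 counts as the limit. H1H2H2 9 had 58 and 1. Both libraries thus held the atrial regulatory light chain Myl7 and the alpha heavy chain. They held little or none of the ventricular regulatory light chain Myl2 and the beta heavy chain, and in these pairs were unlike the H1CKO libraries.
Tnni1 made up 84.5% to 95.4% of the Tnni1 and Tnni3 counts in control, 65.2% to 74.4% in H1CKO and 97.4% to 99.3% in H1H2H2. H1CKO was the lowest of the 3 groups in every library, and H1H2H2 the highest. Myl4, the atrial and embryonic essential light chain, made up 76.1% to 81.2% of the Myl4 and Myl3 counts in H1CKO and 94.3% in control 1. In H1H2H2 9 it made up 71.4% (exact 95% interval 58.7 to 82.1), from 45 Myl4 and 18 Myl3 counts. In this pair H1H2H2 9 thus did not lie above the H1CKO libraries. Cardiac Actc1 made up 92.8% to 95.2% of the Actc1 and skeletal Acta1 counts in H1CKO. These intervals and limits cover counting error only.

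**Figure D4:**
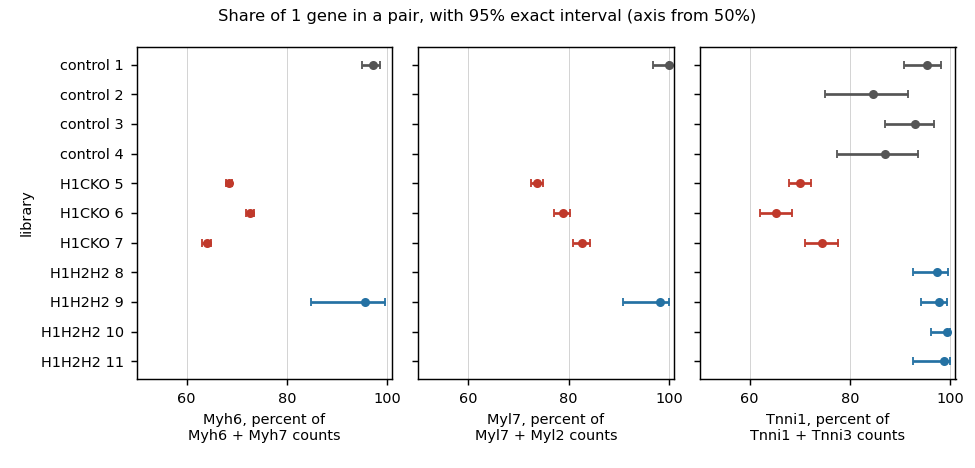
Share of 1 gene in a pair of related genes by library, in percent of the pair's counts with the exact 95% interval, for libraries with at least 20 counts of the pair (axis from 50%). The 3 H1CKO libraries hold 64.0% to 72.6% Myh6, while control 1 and H1H2H2 9 hold 97.2% and 95.6%.

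Genes above their group in control 1 were compared with the H1CKO mean. Control 1 held 7.47% of the H1CKO mean of Ldb3, 5.78% of Csrp3, 5.37% of Myl4, 4.20% of Myl7, 3.57% of Tnnt2, 3.00% of Myh6 and 2.93% of Ttn. It held 0.19% of the H1CKO mean of Myh7 and no count of Myl2 or Nppa. A further 2 genes that are not on the list, named after their values were seen, also stood out there. Hcn4, a pacemaker channel, was at 11.7 CPM in control 1 against 1.46 to 2.61 in the other controls, and at 1.31 in H1H2H2 9. Tbx18, a gene of the somites and of the venous pole of the heart, had 116, 8, 33 and 6 counts in control 1 to 4 and 0, 149, 0 and 1 in H1H2H2 8 to 11. It is also among the neural and somitic markers above. Its counts therefore enter their summed level, which within each group was highest in control 1 and in H1H2H2 9. What these 2 libraries contained was not tested.

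**Figure D5:**
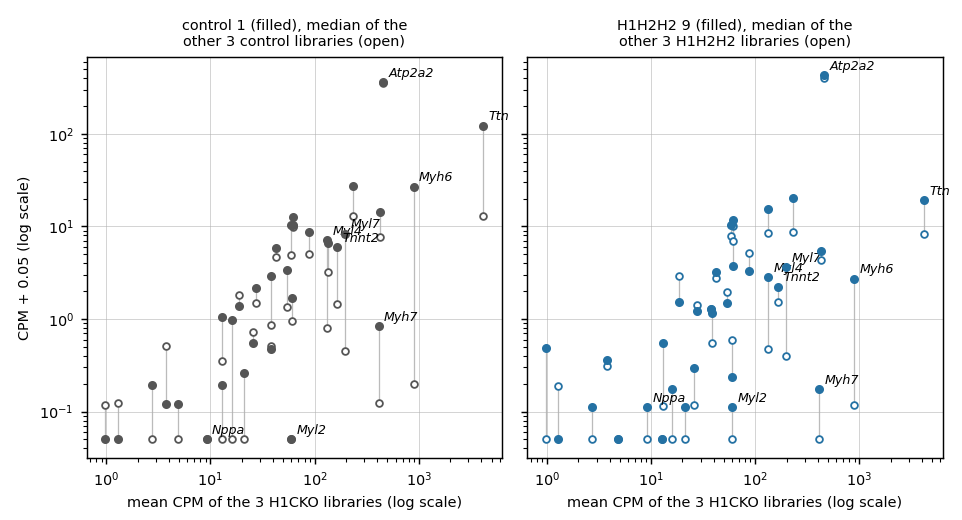
CPM plus 0.05 in control 1 (left, filled) and H1H2H2 9 (right, filled) beside the median of the other libraries of the group (open), against the mean CPM of the 3 H1CKO libraries, both axes on a log scale and 1 pair of points per gene. Control 1 lies far above its group for Myh6 (26.8 CPM) and Ttn (122.3 CPM) and at 0 for Myl2 and Nppa.

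Other muscle genes were counted over lists chosen for the same tissue, to be read beside the 27.0% of all genes called higher and 25.6% called lower in H1CKO against control. Of 27 tested heart contraction genes outside the list, 22 were called higher in H1CKO than in control and 1 lower, with a median of 2.52. Smyd1, a methyltransferase of muscle, rose by 4.04 (SE 0.380), and Cmya5 by 3.15 (SE 0.315).
Of 26 other calcium and membrane genes, 20 were called higher and 1 lower, with a median of 2.04. Slc8a1, the sodium-calcium exchanger, rose from 19.1 ± 8.46 to 355.2 ± 186.2 CPM (4.22, SE 0.391). Of 10 muscle energy genes, 6 were called higher, 1 lower and 3 in neither direction, with Pgam2 at 3.63, Eno3 at 2.51 and a smallest change of -1.03. Their median was 1.36, but their summed level did not rise. It was 679.2 to 754.8 CPM in control, 536.35 to 683.8 in H1CKO and 710.3 to 904.35 in H1H2H2.
Of the skeletal muscle markers, 10 of 22 were analysed, 6 were called higher and 2 lower, and Myod1, Myog, Myf5 and Myf6 were not analysed here. Their summed level was 19.3 to 26.1 CPM in control, 47.4 to 52.4 in H1CKO and 18.1 to 21.9 in H1H2H2. Of 11 smooth muscle markers, 8 were called higher and none lower, with Cnn1 at 3.75 (SE 0.409). Primitive erythroid markers were called in neither direction (0 of 12, and 0 at an unadjusted p under 0.05). Of 8 endocardial and endothelial markers, 2 were called higher (Npr3 at 0.98 and Nfatc1 at 0.90) and 1, Tek, lower, which is no more than the shares of all genes.
In H1H2H2 against control, 0 of 27 other heart contraction genes were called by edgeR. At an unadjusted p under 0.05 there were 6, where 5074 of all 14671 genes were. Of 26 other calcium and membrane genes, 1 was called higher and 3 lower, where 9.49% of all genes were called higher and 7.16% lower.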

How the data were processed

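The KAPA mRNA HyperPrep kit was used for library preparation, per the labels' protocols. The submitters' processing notes name mm10, STAR (2.5.2b), Subread (1.5.1) with featureCounts, and edgeR, without settings. Per the file headers, the deposited table holds raw counts of reads for each gene in each library. It also holds log2 FPKM values as the authors computed them. The authors deposited a log2 fold change, a signed fold change (a score), a p-value and an FDR for each comparison. Only the counts were tested here.

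Genes were chosen by symbol. The genes and gene lists were chosen with earlier results of these data known. Counts were filtered with filterByExpr (14671 of 15061 genes left), scaled with TMM factors and tested in 1 edgeR 4.0.16 quasi-likelihood model of 11 libraries (R 4.3.3), with p adjusted by Benjamini and Hochberg over all genes at 0.05. The model was run on simulated counts with known fold changes before use. This model gave every adjusted p named as edgeR. Each SE is the log2 fold change over the square root of F. A change is at least 4-fold at a log2 fold change of 2 or more. Values per library were given for the genes with the largest and smallest change and the highest control mean in each role, and for every gene called in H1H2H2 against control. Genes outside the list were named as up to 4 per list with the smallest p, with the exceptions stated, leaving out 2 genes that are not reported here. FPKM was taken as 2 to the power of the deposited value. Floors take 3 counts over the group. Library totals of 12019377 to 16824228 counts limit precision for genes of a few counts. Overlaps and copies were read from GENCODE transcripts with BLAST+ 2.17.0, and promoters from RefSeq (GRCm38.p6). Alternatives were DESeq2 1.42.0, limma-voom (limma 3.58.1), other scalings and filters, only 2 groups, a term for sex, control 1 and 2 summed, and each library left out.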

Additional observations from a re-analysis of the deposited data

Results flagged for a closer look

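In groups of 4 libraries, 68 sets of values were tested for a library far from the others, by the gap to its nearest neighbour over the whole range, and 17 stood out. Chance flags about 1 in 20 groups, and genes that move together are not separate tests. Of the 17, 7 were control 1 and 8 were H1H2H2 9.

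Control 1 was far above the other controls in Myh6 at 26.8 CPM (others 0.132 to 0.343), Myl4 at 7.10 (0.463 to 0.756), Myl7 at 8.31 (0.0687 to 1.04) and Tnnt2 at 5.90 (1.24 to 1.49). It was also far above in Ttn at 122.3 CPM (11.6 to 14.4), Ldb3 at 2.84 (0.728 to 1.03) and Csrp3 at 0.923 (0 to 0.149). Control 2 was far above the others in Des at 40.7 CPM (8.54 to 12.6).

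H1H2H2 9 was far above the other H1H2H2 libraries in Myh6 at 2.67 CPM (0.0661 to 0.212), Myl7 at 3.61 (0.264 to 0.481) and Ryr2 at 20.2 (7.76 to 9.42). It was likewise above in Hrc at 0.497 CPM (0 to 0.0706) and Nppb at 0.435, where the others had none. Pln and Nppa, each at 0.0622 CPM from 1 count, and Tcap, at 0 CPM against 0.132 to 0.141 in the others, rest on too few counts to be read. H1H2H2 10 was below the others in Ldb3 at 0.925 CPM (1.24 to 1.27). This was 14 counts against 18, 20 and 18 in H1H2H2 8, 9 and 11, a gap of few counts that is not read further.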

How the results depend on the processing

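No paired analysis was possible because the groups share no replicate numbers. In H1CKO against control, all tested genes but Atp2a2 and Des were called under every alternative that tested them, and the median of 5.32 was 4.73 to 5.51 with 1 library left out. In H1H2H2 against control, the count called lower (1) was 3 with DESeq2, and 0 with limma-voom, with only the 2 groups (where Tnni3 did not pass the filter on low counts), with a term for sex and without both control 1 and H1H2H2 9, the last chosen after seeing the data. Leaving out 1 library gave 0 to 2 called lower and 0 or 1 called higher. The median of -0.69 was -0.87 to -0.24 with 1 library left out (-0.24 without control 1) and -0.50 without control 1 and H1H2H2 9. In H1H2H2 against H1CKO, the median of -6.18 was -5.99 with limma-voom, -5.70 to -6.48 with 1 library left out and -6.48 without control 1 and H1H2H2 9. Atp2a2 was called lower there with upper-quartile scaling (-0.32), which moved the median of all genes to -0.14 from -0.03, and without H1CKO 7 (-0.33). No called value changed sign, and 29 uncalled values did and stayed uncalled. The causes were not tested.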
